A study of Rattus norvegicus with 2 samples.

Results

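Expression of 10 genes that mark the endothelium of blood vessels was examined in the left adrenal medulla of rats killed during a hypoglycemic clamp, 30 min into the period at target glucose. The genes were Pecam1, Cdh5, Kdr, Vwf, Tek, Flt1, Eng, Emcn, Tie1 and the fenestration gene Plvap. Every probe set whose annotation names exactly 1 of these genes was taken, which gave 12 probe sets for 9 genes among 31042 probe sets for 14217 genes in all. No probe set was annotated to Cdh5, which encodes VE-cadherin, so it was not analysed here. The insulin group, 2RH30, was made of adult male Sprague-Dawley rats given human insulin by intraperitoneal injection on 3 days, at a dose of 2 IU/kg and 2 injections per day, to produce recurrent hypoglycemia (RH), although the methods of the study give 1 injection on the last of these days. The saline group, 2RS30, had saline on the same schedule. Rats of both groups carried catheters in the jugular vein and carotid artery, were fasted overnight and were clamped with infused insulin and dextrose on day 4, so 2RS30 rats met hypoglycemia without earlier insulin injections and are not untreated. RNA from 6 rats was pooled for 1 Affymetrix rat genome array per group. A difference between the pools therefore has no replicate check, no p-value is given, and fewer vessels and less RNA per vessel cell cannot be told apart.

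Blood in the adrenal gland passes through thin-walled sinusoidal capillaries whose endothelial cells lie against the chromaffin cells, and released catecholamines enter the blood through this wall. Capillaries of endocrine glands are fenestrated, and Plvap encodes the protein of the diaphragms that span the fenestrae. Growth and upkeep of these vessels depend on VEGF, which acts through the receptors encoded by Kdr and Flt1, and on angiopoietins, which act through the receptor encoded by Tek.

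Promoter sequences from RefSeq (GRCr8) were matched by symbol for 6 of the 10 genes, Emcn, Eng, Tie1, Flt1, Kdr and Plvap. Each runs from 250 bases before to 50 bases after the gene's start. Of these, 4 are printed: Emcn with the highest difference, Tie1 with the lowest, Flt1 whose probe sets disagreed, and Kdr, the only promoter of the 6 with no match to AGGAAG. Capitals mark AGGAAG, or CTTCCT where it lies on the other strand, the letters of a site for ETS factors, the family of Erg and Fli1 that is known for its role in endothelial transcription.
Emcn, chr2:228564289-228564588, + strand: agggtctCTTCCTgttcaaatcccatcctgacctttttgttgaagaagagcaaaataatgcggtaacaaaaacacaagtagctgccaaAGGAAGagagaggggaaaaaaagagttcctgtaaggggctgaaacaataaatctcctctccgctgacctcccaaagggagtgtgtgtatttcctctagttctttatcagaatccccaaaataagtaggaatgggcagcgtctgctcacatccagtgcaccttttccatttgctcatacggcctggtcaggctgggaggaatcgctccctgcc
Tie1, chr5:137304932-137305231, - strand: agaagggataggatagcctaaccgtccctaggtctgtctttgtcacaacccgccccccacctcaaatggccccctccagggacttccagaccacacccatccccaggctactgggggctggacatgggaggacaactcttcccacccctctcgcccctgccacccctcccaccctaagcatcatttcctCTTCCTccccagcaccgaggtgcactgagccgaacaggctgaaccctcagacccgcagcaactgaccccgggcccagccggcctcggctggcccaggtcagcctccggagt
Flt1, chr12:12333180-12333479, + strand: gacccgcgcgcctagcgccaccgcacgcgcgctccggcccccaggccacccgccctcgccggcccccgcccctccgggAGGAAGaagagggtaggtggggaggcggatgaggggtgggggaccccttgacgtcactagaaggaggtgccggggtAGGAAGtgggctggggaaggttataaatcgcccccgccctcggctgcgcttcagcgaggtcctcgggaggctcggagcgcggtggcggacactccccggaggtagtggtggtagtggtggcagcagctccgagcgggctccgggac
Kdr, chr14:32571813-32572112, + strand: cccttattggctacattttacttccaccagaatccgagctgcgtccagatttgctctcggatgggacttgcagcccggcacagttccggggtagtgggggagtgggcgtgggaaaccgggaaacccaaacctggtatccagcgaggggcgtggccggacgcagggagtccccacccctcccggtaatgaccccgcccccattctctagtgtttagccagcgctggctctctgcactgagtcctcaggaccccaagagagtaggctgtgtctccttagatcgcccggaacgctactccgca
AGGAAG, which contains the ETS core GGAA, was found on either strand in 5 of the 6 promoters and in 34.5% of 33469 rat promoters of the same length. GGAA itself was found in 6 of 6 and in 95.8% of all, so its presence separates nothing. The Emcn, Flt1, Eng and Plvap windows held 2 matches to AGGAAG each and the Tie1 window held 1. Of these 6 genes, Tie1 was the only 1 lower in 2RH30 as deposited. Kdr, without a match, was higher as deposited, as were the brightest probe sets of the genes with 2 matches. Of the latter, Plvap was at -0.03 level-adjusted and Flt1 at -0.44 as the mean over its probe sets. A relation between matches and direction was not tested. The GC content was 47% in Emcn, 64.3% in Tie1, 72.7% in Flt1 and 61% in Kdr. A match to TATAAA was present in Flt1, starting 75 bases before the start, and in Plvap, starting 60 bases before it, against 14.2% of all promoters. CACCC, the letters of a site for KLF factors, was found in 5 of 6 and in 54.9% of all, and AGATAA, the letters of a GATA site, in 0 of 6 and in 11.6% of all.

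The values are log2 expression values as the authors deposited them, and differences are 2RH30 minus 2RS30. The arrays differed in general. Values were spread more widely in 2RH30, with an SD of 1.57 over probe sets, than in 2RS30, with an SD of 1.28, and the median difference was -0.38 in the dimmest of 20 level bins and 0.49 in the brightest. For this reason a level-adjusted difference is also given, from which that trend was removed with a lowess curve. Probe sets are called dim where each array reads them under its own median. On the 2RS30 array, 10 exact values were each shared by 50 or more probe sets and took in 7.52% of all probe sets, whereas 0 values were shared to that extent on the 2RH30 array. The bioB hybridization control, added at a fixed amount, differed by -3.25 as the mean over its probe sets. The part of these array differences in any single value below was not tested.

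Of the 9 endothelial genes, each read from its brightest probe set by mean level, 6 had a higher value in 2RH30 and 3 a lower one, and level-adjusted 5 were higher and 4 lower. Over all 14217 genes, 7976 were higher as deposited and 7275 level-adjusted. As deposited, none of the 9 endothelial genes reached the 2-fold threshold of the study's methods. Thus 0 of 9 were 2-fold or more higher, where 11.5% of all genes were, and 0 of 9 were 2-fold or more lower, where 9.62% of all genes were. With 9 genes these shares correspond to about 1 gene in each direction, so the count of 0 is not a result about the endothelial genes. Level-adjusted, 1 of 9 was 2-fold or more higher (Emcn), where 8.95% of all genes were, and 0 of 9 were lower, where 9.31% were. The median difference of the 9 genes was 0.20 as deposited and 0.10 level-adjusted, against 0.11 and 0.02 over all genes. The size of the difference, whatever its sign, had a median of 0.52 both in the 9 genes and in all genes. By probe set, 0 of 12 were 2-fold or more higher as deposited and 1 of 12 was 2-fold or more lower, against 10.4% and 12.1% of all probe sets. Level-adjusted, the counts were 1 of 12 in each direction, against 8.99% higher and 10.2% lower.

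**Figure D1:**
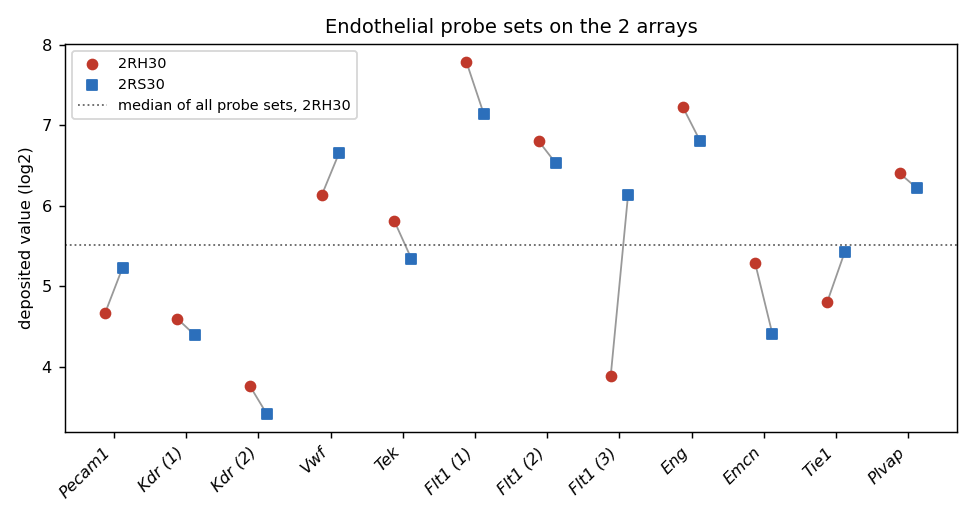
Deposited log2 value (vertical axis) of each endothelial probe set (horizontal axis) on the 2RH30 array (red circles) and the 2RS30 array (blue squares), with the median of all probe sets on the 2RH30 array (dotted line). Numbers in brackets count the probe sets of a gene from the brightest down, levels of different probe sets are not comparable, and the widest gap is that of the third Flt1 probe set, at 3.89 in 2RH30 and 6.14 in 2RS30.

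The VEGF receptors were compared first. Kdr encodes VEGFR-2, the main signalling receptor for VEGF-A. Its brighter probe set (1367948_a_at) had a value of 4.60 in 2RH30 and 4.39 in 2RS30, a difference of 0.20 (level-adjusted 0.51). The other (1397868_at) had 3.77 in 2RH30 and 3.41 in 2RS30, a difference of 0.36 (level-adjusted 0.80). Both Kdr probe sets were thus slightly higher in 2RH30 and both were dim, and the second lay under the 5th percentile of the 2RS30 array, 3.67, so that the size of its difference is uncertain. Flt1 encodes VEGFR-1, which binds VEGF-A tightly but signals weakly and can act as a decoy. Its brightest probe set (1370492_a_at) had a value of 7.79 in 2RH30 and 7.15 in 2RS30, a difference of 0.65 (level-adjusted 0.26), or 1.56-fold. The second (1369087_at) had 6.81 in 2RH30 and 6.53 in 2RS30, a difference of 0.28 (level-adjusted 0.01), but its 2RS30 value was one that 253 probe sets share exactly. The third (1377113_at) had 3.89 in 2RH30 and 6.14 in 2RS30, a difference of -2.25 (level-adjusted -2.14), or 4.76-fold lower.

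The Flt1 probe sets therefore went in opposite directions. Their differences spanned 2.90 on the log2 scale, against a median span of 1.24 over the 1036 genes with 3 probe sets, of which 37 (3.57%) had a span at least as wide. Among the 1552 probe sets of similar mean level, 2.32% had a difference at least as large as that of the third Flt1 probe set in either direction, and 14.5% were 2-fold or more lower. The mean over the 3 Flt1 probe sets was -0.44, and over the 2 brighter ones 0.46, so that the direction for Flt1 rests on which probe sets are read. The suffix _a_at is given by the manufacturer to probe sets shared by alternative transcripts of a gene, and which Flt1 transcripts each probe set reads was not analysed here.

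The Tie receptors went in opposite directions. Tek encodes Tie2, the angiopoietin receptor that keeps vessels quiescent. Its 1 probe set (1393067_at) had a value of 5.82 in 2RH30 and 5.34 in 2RS30, a difference of 0.48 (level-adjusted 0.38). Tie1 encodes a related receptor that binds no angiopoietin by itself and modulates Tie2. It was read by 1 dim probe set (1389324_at), at 4.81 in 2RH30 and 5.42 in 2RS30, a difference of -0.61 (level-adjusted -0.55), the lowest of the 9 genes as deposited. The difference of Tek exceeded that of Tie1 by 1.09 as deposited and by 0.93 level-adjusted. Differences of either size were common. Among probe sets of similar level, 52.9% had a deposited difference at least as large as that of Tek in either direction. For Tie1 this share was 46.1%. Each of these receptors was read by a single probe set, so neither direction has a second reading on the array.

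Surface proteins of the endothelium also differed in sign. Emcn encodes endomucin, a sialomucin of capillary and venous endothelium. Its probe set (1372587_at) had a value of 5.29 in 2RH30 and 4.41 in 2RS30, a difference of 0.88, or 1.84-fold, which was the highest of the 9 genes. Level-adjusted it was 1.05, past the 2-fold threshold. The probe set was dim, and 33.3% of probe sets of similar level had a deposited difference at least as large in either direction. Pecam1 encodes CD31, an adhesion molecule of endothelial junctions that platelets and leukocytes also carry. It was dim as well (1371545_at), at 4.67 in 2RH30 and 5.23 in 2RS30, a difference of -0.56 (level-adjusted -0.43). Eng encodes endoglin, a co-receptor for BMP9 and TGF-β. It had a value of 7.23 in 2RH30 and 6.80 in 2RS30 (1372579_at), a difference of 0.42 (level-adjusted 0.10). Emcn and Pecam1, both dim, thus lay on opposite sides of 0, and Eng, which was not dim, lay close to the general trend of the arrays at its level, a median of 0.31.

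The remaining genes concern secretion and permeability. Vwf encodes von Willebrand factor, the clotting protein stored in the Weibel-Palade bodies of endothelial cells and in platelets. Its probe set (1389234_at) was not dim and had a value of 6.14 in 2RH30 and 6.66 in 2RS30, a difference of -0.52. Level-adjusted this was -0.75, the lowest of the 9 genes on that scale, because probe sets of similar level had a median of 0.20. At that level 4.57% of probe sets were 2-fold or more lower, a threshold that Vwf, 1.44-fold lower, did not reach. A deposited difference at least as large as that of Vwf, in either direction, was found in 48.3% of them. Plvap (1368284_at) had a value of 6.41 in 2RH30 and 6.22 in 2RS30, a difference of 0.19, or 1.14-fold. Level-adjusted it was -0.03, the value closest to 0 among the 9 genes. The fenestral diaphragm gene thus differed little between these pools, although the precision of that value cannot be stated from 1 array per group.

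**Figure D2:**
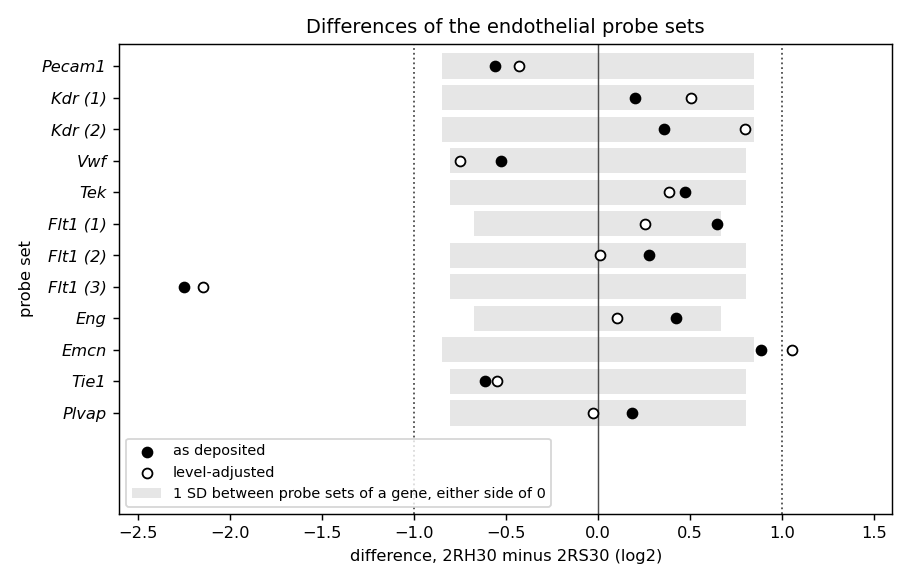
Each endothelial probe set (vertical axis) with its 2RH30 minus 2RS30 difference (horizontal axis, log2), shown as filled points for deposited values and open points for level-adjusted ones. Grey bars extend 1 SD between probe sets of a gene at that level on either side of 0, dotted lines mark a 2-fold difference, and the third Flt1 probe set and Emcn lie outside their bars.

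The SD between the differences of probe sets of the same gene serves as a yardstick here. It comes from the same 2 pools, so variation among rats is not in it. It was 0.85 at mean levels under 5, 0.81 at 5 to 7 and 0.67 at 7 or more. Of the 12 endothelial probe sets, 2 exceeded it, Emcn and the third Flt1 probe set, both as deposited and level-adjusted. The brightest Flt1 probe set, at 0.65, lay just inside. The share of all probe sets past this SD was not computed, so the count is not a result about the endothelial genes. Among probe sets of similar level, 33.3% had a deposited difference at least as large as that of Emcn in either direction. For the third Flt1 probe set this share was 2.32%. Sign was the same as deposited and level-adjusted for 8 of the 9 genes, with Plvap as the exception. Without dim probe sets 5 genes remained, Vwf, Tek, Flt1, Eng and Plvap, of which 4 were higher in 2RH30 as deposited and 3 level-adjusted. Their median difference was 0.42 as deposited and 0.10 level-adjusted, against 0.26 and -0.01 over all genes that were not dim.

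**Figure D3:**
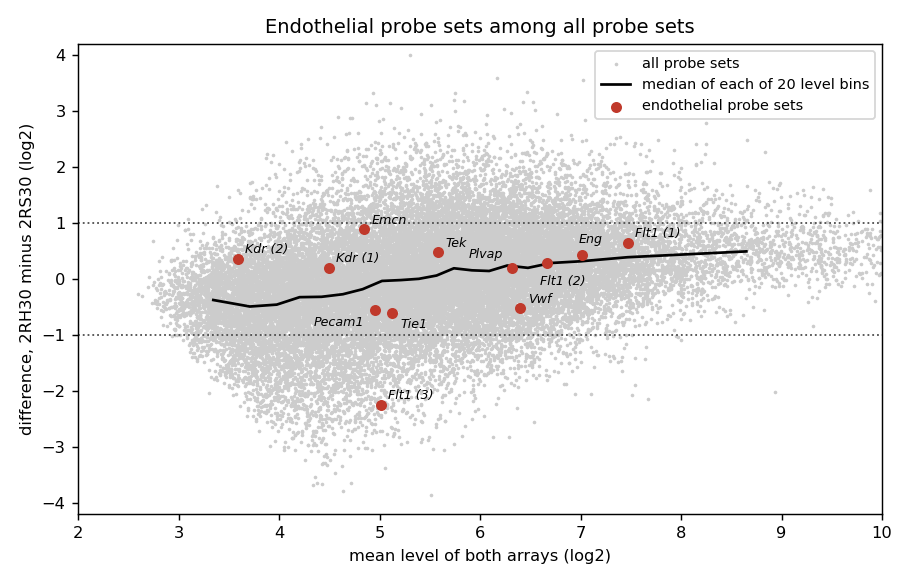
Mean level of both arrays (horizontal axis, log2, shown up to 10) and 2RH30 minus 2RS30 difference (vertical axis, log2) of all probe sets (grey) and the 12 endothelial probe sets (red), with bin medians over 20 bins of level (black line). Plvap, Eng and the second Flt1 probe set lie near the line, Vwf lies below it and both Kdr probe sets lie above it.

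Ligands and co-receptors of the VEGF and Tie receptors were examined as a list of 14 genes, all of them measured. As deposited, 7 were higher and 7 lower in 2RH30, and the median was 0.12 (level-adjusted 0.21). As deposited, 1 of 14 was 2-fold or more higher and 1 of 14 lower, where 11.5% and 9.62% of all genes were, and level-adjusted 0 and 1, where 8.95% and 9.31% were. Vegfa, the main ligand of Kdr and Flt1, had a value of 9.98 in 2RH30 and 9.13 in 2RS30, a difference of 0.85 (level-adjusted 0.32), but its other probe set differed by -0.0038 (level-adjusted -0.32). Vegfb and Pgf, ligands of Flt1 and not of Kdr, differed by 0.46 and -0.21 (level-adjusted 0.20 and -0.02). Angpt1, which activates Tie2, differed by 0.38 (level-adjusted 0.24), and Angpt2, which mostly opposes it, by -0.01 (level-adjusted -0.31). Ptprb, the phosphatase VE-PTP that restrains Tie2 and VE-cadherin, differed by -0.06 in its brighter probe set and by 0.65 in the other. Nrp1, a VEGF co-receptor, differed by -0.37 and 0.59 in its 2 probe sets. The ligands that bind these endothelial receptors thus stayed under 2-fold, and probe sets of Vegfa, Pgf, Ptprb and Nrp1 disagreed in sign.

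Partners of endoglin and VE-cadherin were read as well. Acvrl1, which encodes ALK1, the BMP9 receptor that endoglin assists, had a value of 4.71 in 2RH30 and 5.76 in 2RS30, a difference of -1.05 (level-adjusted -1.03), opposite in sign to that of Eng. Ctnnb1 encodes β-catenin, which binds VE-cadherin but is present in nearly all cells, and its 4 probe sets differed by 0.32 to 0.55, with the brightest at -0.20 when level-adjusted. The caveola gene Cav1, whose product shapes the vesicles that also carry the Plvap protein, differed by 0.20 (level-adjusted 0.06). The list of 10 junction and caveola genes had a median of 0.30 (level-adjusted 0.06). As deposited and level-adjusted alike, 1 of the 10 was past 2-fold higher and 0 lower, where the shares over all genes were 11.5% and 9.62% as deposited and 8.95% and 9.31% level-adjusted.

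Of 22 other endothelial genes, 10 were higher and 12 lower in 2RH30 as deposited, and 6 were higher and 16 lower level-adjusted. Over all 14217 genes, 7976 were higher as deposited and 7275 level-adjusted. Of the 22 genes, 8 were dim. Past 2-fold were 1 higher and 4 lower as deposited, where 11.5% and 9.62% of all genes were, and 0 and 3 level-adjusted, where 8.95% and 9.31% were. Their median was -0.13 (level-adjusted -0.27), against 0.20 (level-adjusted 0.10) for the 9 endothelial genes. Egfl7, a matrix protein secreted by endothelial cells, was the gene past 2-fold higher, at 1.02 and 1.11 in its 2 probe sets (level-adjusted 0.56 and 0.67). The lowest that were not dim were Procr, the endothelial protein C receptor, at -1.59 (level-adjusted -1.48) and Sox18, a transcription factor of developing vessels, at -1.03 (level-adjusted -1.16). The ETS factor genes Erg and Fli1 differed by 0.09 and 0.44 (level-adjusted 0.30 and -0.01) in their brightest probe sets. The other Erg probe set differed by -0.57, and all 3 others of Fli1 were lower in 2RH30, by -0.07 to -1.64, the last of these in a probe set that was not dim. Endothelial genes outside the first 10 thus did not share 1 direction either, although most were lower when level-adjusted.

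Markers of other cells in the dissected tissue were read beside these values. Chromaffin markers were higher in 2RH30 in 7 of 7 genes as deposited and in 4 of 7 level-adjusted, with a mean level of 9.60 in 2RH30 and 9.04 in 2RS30 and a median difference of 0.51 (level-adjusted 0.09). Markers of the adrenal cortex were higher in 6 of 6 as deposited and in 4 of 6 level-adjusted, with a mean level of 11.1 in 2RH30 and 10.5 in 2RS30 and a median of 0.59 (level-adjusted 0.04), so cortical RNA was present in both pools. Mural cell markers, of pericytes and smooth muscle, had a median of 0.05 (level-adjusted -0.13), and blood and platelet markers one of 0.38 (level-adjusted 0.12). Macrophage markers had the highest median of these lists, 1.10 (level-adjusted 0.78), but did not share 1 direction. On both scales 6 of the 9 were higher in 2RH30 and 3 lower. Past 2-fold were 5 higher and 1 lower as deposited, where 11.5% and 9.62% of all genes were. Level-adjusted these counts were 4 and 1, where 8.95% and 9.31% of all genes were. The lower genes were Ptprc, Csf1r and Itgam, at -0.71, -0.77 and -1.11 (level-adjusted -0.79, -0.89 and -1.07). C1qa was the highest, at 2.71, but it read only 3.06 on the 2RS30 array, among the lowest 5% there. The size of its difference is therefore uncertain. Lymphatic markers had a median of 0.37 (level-adjusted 0.19) over 4 genes and fibroblast markers one of -0.03 (level-adjusted 0.19) over 5. Pecam1 and Eng are also expressed by macrophages and differed in opposite directions. The share of these cells in the endothelial values was not tested.

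**Figure D4:**
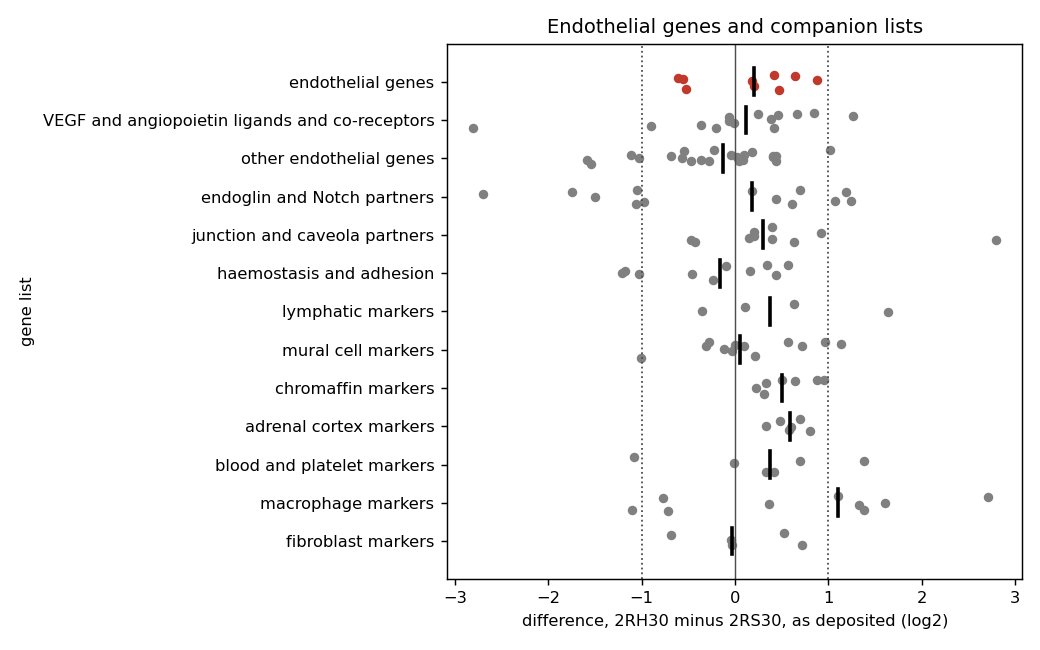
Deposited 2RH30 minus 2RS30 difference (horizontal axis, log2) for each gene of the endothelial list (red) and of the companion lists (grey), with list medians (black bars) and 2-fold lines (dotted). All 9 endothelial genes lie between -0.61 and 0.88, inside the 2-fold lines.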

How the data were processed

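Total RNA of the left adrenal medulla was pooled from 6 rats per group and hybridized to 1 array per group. The authors deposited log2 values, 1 per probe set and array. The submission names Affymetrix Expression Console, with no version, and the methods of the study name GCRMA in Partek and describe the deposited data as quantile-normalized. How the probes of a set were summarized for the deposit is not stated in these sources, and the log2 scale was read from the range of the values. The deposited values of 2RH30 and 2RS30 did not have the same distribution, with SDs of 1.57 and 1.28. They were therefore not taken as quantile-normalized to each other. Arrays of other time points were not used here.

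Array controls (57 of 31099 probe sets) were left out. Probe sets were named from the platform annotation, with symbols updated by gene number through RefSeq for GRCr8: 20826 named 1 gene (20758 gene numbers matched), 436 several and 9780 none. With 1 array per group no test was run, and the number of arrays limits the precision. Genes were counted at 2-fold. The level adjustment was a lowess curve (fraction 0.3, 3 iterations), tested on simulated data. These were the adjusted differences of the same arrays, shuffled, with known shifts and the same trend put back. Such data cannot show where the trend comes from. All 10 endothelial genes were to be named with every probe set, direct ligands and partners whatever their values, and up to 3 genes, dim ones aside, at either end of each other list. Erg, Cav1 and, in the closing text, Edn1, Sele, Vcam1, Pf4, Ppbp, Ccl21 and genes at a widely shared 2RS30 value are named outside that rule, after their values were seen. The members and lists were chosen with earlier results of these data known. Alternatives were median centring, quantile normalization, the lowess adjustment, other thresholds, the mean over probe sets, and leaving out probe sets that are dim or can match several transcripts. Leaving out probe sets with a widely shared 2RS30 value was added after the data were seen. Python 3.11.15, pandas 2.3.3, numpy 2.4.6, statsmodels 0.14.6 and matplotlib 3.10.9 were used.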

Additional observations from a re-analysis of the deposited data

How the results depend on the processing

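Among the 9 endothelial genes, 0 were 2-fold or more higher in 2RH30 as deposited, and this count was 1 (Emcn) after quantile normalization and 1 (Emcn) after lowess adjustment. A 1.5-fold threshold gave 2 higher (Flt1 and Emcn) and 1 lower (Tie1). The shares of all genes past 1.5-fold, or past 2-fold after quantile normalization, were not computed. As the median size of the difference was 0.52 in the 9 genes and in all genes, these counts are not a result about the endothelial genes. The other alternatives, and leaving out probe sets with a widely shared 2RS30 value, left both counts at 0. The median of 0.20 lay between 0.10 (lowess) and 0.42 (without dim probe sets, with 5 genes left). Of 59 alternative values of single genes, 58 moved by less than the SD between probe sets and 3 had another sign. These 3 were Flt1, at -0.44 as the mean over its probe sets, and Plvap, at -0.03 after quantile normalization and at -0.03 after lowess. Of 36 medians of the companion lists under the 3 scalings, 8 moved by more than that SD divided by the square root of the number of genes, and the cause was not tested. No paired analysis was possible because 1 pool stands for each group. Leaving out a replicate was not run for the same reason. No pseudocount applies to log2 values. A background level is not stated for the arrays, so the dim probe sets, which read Kdr, Pecam1, Emcn and Tie1, have no stated limit.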

Other observations

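Among ligands and receptors related to those of VEGF, the widest differences belonged to Flt4 and Apln. Flt4 encodes VEGFR-3, the receptor for VEGF-C, and had a value of 8.53 in 2RH30 and 7.26 in 2RS30, a difference of 1.26 (level-adjusted 0.82) from 1 probe set. Apln encodes apelin, a peptide of sprouting endothelial cells. It had a value of 4.42 in 2RH30 and 7.22 in 2RS30, a difference of -2.80 (level-adjusted -2.95), and its other probe set had 3.87 in 2RH30 and 5.74 in 2RS30, a difference of -1.87 (level-adjusted -1.68). Both Apln probe sets were therefore past 2-fold lower in 2RH30, whereas those of its receptor, Aplnr, differed by -0.90 and 0.84.

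Of 13 genes that act with endoglin or in endothelial Notch signalling, 3 were 2-fold or more higher in 2RH30 and 5 were 2-fold or more lower as deposited, and 0 and 5 level-adjusted, against 11.5% and 9.62% of all genes as deposited and 8.95% and 9.31% level-adjusted. Their median changed sign with the adjustment, from 0.18 in deposited values to -0.28 without the level trend. Acvrl1 was among the lower ones at -1.05. Bmpr2, the type II receptor that pairs with it, differed by 1.07 and 1.31 (level-adjusted 0.55 and 1.22) in its 2 probe sets. Id3 and Id1, BMP target genes in many cell types, differed by 1.25 and 1.18 (level-adjusted 0.76 and 0.99). Tgfbr1 differed by -2.70 in its brighter probe set and by 1.41 in the other. Hey1, a Notch target, differed by -1.50 (level-adjusted -1.30), and the probe sets of Notch1 by -1.06 and 0.44 (level-adjusted -1.21 and 0.38). Among junction genes, Tjp1, which encodes the tight junction protein ZO-1, had 1 probe set at 2.80 (level-adjusted 2.71) and another at -0.50.

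Genes of haemostasis and leukocyte adhesion at the vessel wall had a median of -0.16 (level-adjusted -0.17), with 0 of 10 past 2-fold higher in 2RH30 and 3 of 10 past 2-fold lower as deposited, where 11.5% and 9.62% of all genes were, and 0 and 1 level-adjusted, where 8.95% and 9.31% were. The 3 lower as deposited were Edn1, the vasoconstrictor endothelin-1, at -1.21 (level-adjusted -1.01), Sele, the adhesion molecule E-selectin, at -1.18 (level-adjusted -0.75), and Vcam1, an adhesion molecule for leukocytes, at -1.03 (level-adjusted -0.75), and all were dim. The highest that were not dim, by brightest probe set, were Cd63, a membrane protein of Weibel-Palade bodies and lysosomes, at 0.57 (level-adjusted 0.10), and F8, the clotting factor that von Willebrand factor carries, at 0.44 (level-adjusted 0.05). The other probe sets of F8 disagreed, from -0.43 to 2.14, and 2 of them were past 2-fold higher, at 1.13 and 2.14 (level-adjusted 1.09 and 2.24). Thbd, the thrombin receptor thrombomodulin, differed by -0.45 in its brightest probe set, and its other probe sets were lower as well, the lowest by -2.76. Among platelet markers, which bear on Vwf and Pecam1, Itga2b differed by 0.69 (level-adjusted 0.51), Gp9 by -0.01 (level-adjusted -0.20) and the dim Pf4 by -1.08 (level-adjusted -0.88). Ppbp, also dim, differed by 0.34 (level-adjusted 0.35), so platelet markers did not share 1 direction.

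Among genes of pericytes and smooth muscle, Notch3 differed by 0.96 (level-adjusted 0.77) and the potassium channel gene Kcnj8 had a value of 5.82 in 2RH30 and 6.82 in 2RS30 (level-adjusted difference -1.21). Abcc9, whose product forms a channel with that of Kcnj8, had its brightest probe set at 1.14 (level-adjusted 0.92). Its other probe sets, both dim, were at -2.16 (level-adjusted -1.81) and -0.04 (level-adjusted 0.40). Of lymphatic markers, Prox1, the transcription factor of lymphatic identity, differed by 1.64 (level-adjusted 1.48), but its other probe set by 0.15, and Lyve1 by 0.64 (level-adjusted 0.37). Pdpn differed by 0.11 (level-adjusted 0.01) and the dim Ccl21 by -0.35 (level-adjusted -0.23), so lymphatic markers did not share 1 direction.

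Some values on the 2RS30 array were shared by many probe sets. The most common, 5.55, was held by 468 probe sets, whereas at most 25 probe sets held the same value on the 2RH30 array. Among the brightest probe sets of the listed genes, those of Id1, Jup and Pdpn held that value in 2RS30, as did a dimmer one of Smad5. The brightest of Cav2 held 4.92, a value of 464 probe sets, that of Plat 6.09, a value of 330, and that of Esm1 3.68, a value of 155. Those of F11r and Tgfbr1, and the second Flt1 probe set, held 6.53, which 253 probe sets share. How these values arose was not tested.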
